A study of Homo sapiens with 6 samples.

Results

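The nuclear genes for subunits of the mitochondrial respiratory chain were examined in RCC4, an established line of human clear cell renal carcinoma, with and without exposure to inflammatory cytokines. Members were the rows whose gene name carried the prefix and number of a subunit of complexes I to V, written out as a fixed list of names for complexes II to V. The rule found 77 of 61541 genes: 37 of complex I, 4 of complex II, 8 of complex III, 12 of complex IV, 15 of complex V and ATP5IF1, an inhibitor of complex V. NDUFA4 was named as a complex I gene and was counted with complex IV, where its protein sits. Of the 77 genes, 69 passed the filter on low counts and were tested, among 10067 genes in all. RNA came from 3 untreated cultures and 3 cultures given interferon gamma (IFNγ) at 1000 U/mL and tumour necrosis factor (TNF) at 25 ng/mL for 24 h. Each culture pooled 3 flasks. All 6 were grown in the same complete medium from a single line. The spread between them is one between cultures together with their libraries and sequencing runs, which cannot be told apart. Poly(A) RNA (500 ng) was read as native RNA strands on nanopores, on a separate flow cell for each library and for 72 h. The comparison asks how the transcripts of a tumour cell line differ after cytokine exposure.

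The respiratory chain passes electrons from NADH (through complex I) and from succinate (through complex II) to ubiquinone, then through complex III and cytochrome c to complex IV, which reduces oxygen. Complexes I, III and IV pump protons across the inner mitochondrial membrane, and complex V uses that gradient to make ATP. All of complex II is encoded in the nucleus, whereas the other complexes combine nuclear-encoded subunits with core subunits made from mitochondrial DNA. Clear cell renal carcinoma commonly loses VHL, which stabilises hypoxia-inducible factors and favours glycolysis over respiration.

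Levels are given as CPM, counts per 1000000 of the normalised library size. Library totals ran from 3626000 to 4406296 counts, and a count of 0 leaves room for up to 3 counts, or 0.677 to 0.866 CPM. Such limits cover counting error only. The cytokine exposure was visible in its known targets: IRF1, GBP1 and ICAM1 were called higher, with log2 fold changes of 5.29, 8.39 and 5.43. Renal carcinoma markers were present, with 6 of 6 tested, among which VIM was called higher and PAX8 lower. Of 8 markers of leucocytes, endothelium and fibroblasts, 7 had 3 counts or fewer in every library, 6 of these 0, and the other was COL1A1 (24.5 to 63.3 CPM). Untreated replicate 3 stood apart within its group. Compared with the other untreated libraries, the chi-square of its counts was 27.7 and 24.1 per degree of freedom, where counting noise alone gives about 1, and those 2 gave 3.79 with each other. In the treated group the lowest pair gave 11.5.

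No member passed the threshold for a difference between the groups. By the quasi-likelihood test of edgeR, adjusted over all genes by Benjamini and Hochberg's method, 0 of the 69 members tested were called at an adjusted p under 0.05, where 819 of all genes were (8.14%). The smallest adjusted p among them was 0.242. At an unadjusted p under 0.05 there were 2 members, NDUFB9 and ATP5F1E, against 19.8% of all genes. DESeq2 and limma voom also called 0 members, where they called 968 and 795 of the 10067 genes tested. The intervals limit how large a change could have been missed: the 95% interval of the fold change lay within 2-fold for 59 of the 69 and within 1.5-fold for 27. Only the intervals of NDUFA5, NDUFA9, NDUFB5, NDUFS4, SDHD, UQCR11, UQCRB, COX8A, ATP5MC1 and ATP5MF reached 2-fold. A p above the threshold does not show that a gene was the same in both groups.

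Members' log2 fold changes, treated over untreated, ran from -0.53 (ATP5MC1) to 0.73 (NDUFA9), with a median of -0.13 against -0.03 for all genes. They were negative in 52 of 69 members (75.4%), against 52.7% of all genes. Among members with a mean above 10 CPM 50 of 61 were negative, and at or below that level 2 of 8 were. These are descriptions of the list, without a test. With library totals in place of composition normalisation both medians moved down, to -0.24 for the members and -0.13 for all genes. The members' median minus that of all genes was -0.11 with either scaling. It depended on single libraries: it was -0.23 without untreated replicate 3, -0.15 without treated replicate 1, -0.070 without untreated replicate 2, -0.053 without untreated replicate 1 and -0.054 without treated replicate 3. The members' median itself was -0.20 without untreated replicate 3, -0.064 without treated replicate 3 and -0.068 without untreated replicate 1. That scaling also moved the share of upward changes among all called genes from 68.6% to 57.1%. The treated libraries all lay below the untreated ones in 7 members (10.1%), where 12% of all genes did so, and all above in 1 member (1.45%), where 13.9% did. The 7 were NDUFA10, NDUFB6, NDUFS1, NDUFS5, UQCRC2, ATP5F1A and ATP5IF1, and the 1 was NDUFA9.

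**Figure D1:**
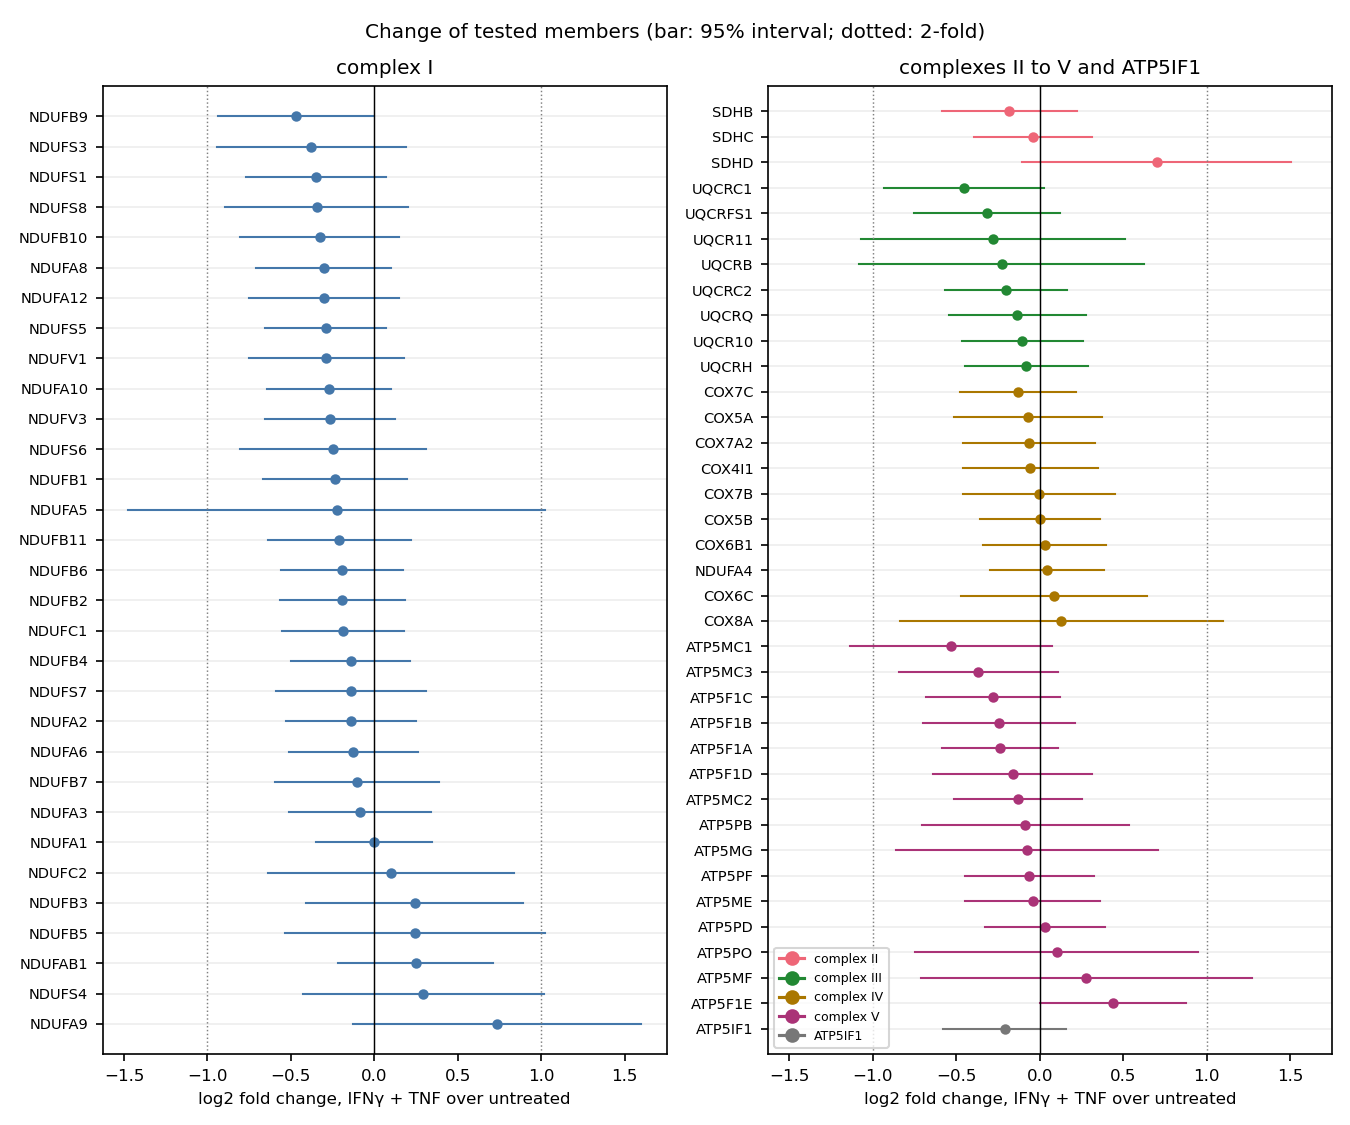
Log2 fold change of 68 of the 69 tested members, IFNγ + TNF over untreated (point), with its 95% interval (bar). Complex I is on the left and the other complexes and ATP5IF1 are on the right, the solid line marks no change and the dotted lines mark 2-fold. Most points lie left of 0, and complex IV is centred on it with this normalisation. It is not centred there with library totals, which lower the median of all genes as well. The widest bars belong to members counted at low levels or, as for NDUFA5, spread between replicates.

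Respiratory chain promoters are known for binding sites of NRF1, of ETS family factors such as the GABPA protein, and of YY1. Promoters from RefSeq (GRCh38.p14, 250 bases before to 50 after the start of transcription) could be matched to 63 of the 77 members and were searched on both strands for 1 core motif of each factor. The NRF1 motif GCGCATGCG was in 10 members' promoters (15.9%) and in 2.10% of 27305 promoters in the table. The ETS motif CCGGAAG was in 19 (30.2%) against 10.7%, and the YY1 motif AAGATGGCG in 8 (12.7%) against 1.85%. At least 1 of the 3 was in 30 of 63 (47.6%) against 13.6%. In the 15843 promoters of protein-coding genes the shares were 2.76% for NRF1, 14.2% for ETS, 2.74% for YY1 and 18.3% for any of them. These are matches of letters and not shown to be bound. Sites are given for ATP5PF, the member whose promoter held all 3 motifs, for SDHD, which held NRF1 and ETS motifs, and for UQCRC1, which held a YY1 motif and is taken up again under complex III. Each is 30 bases written 5′ to 3′ on the gene's strand, with the motif in capitals.
ATP5PF, NRF1, chr21:25735155-25735184 (-): cactcaaagaGCGCATGCGtacagagcaag
ATP5PF, YY1, chr21:25735092-25735121 (-): aggcgaagaaAAGATGGCGgaggctgtgcc
ATP5PF, ETS, chr21:25735066-25735095 (-): tgccaggggacCCGGAAGcacttaccctcc
SDHD, NRF1, chr11:112086753-112086782 (+): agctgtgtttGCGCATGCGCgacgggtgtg
SDHD, ETS, chr11:112086785-112086814 (+): ccgcctctcgaCTTCCGGttcacccagcat
UQCRC1, YY1, chr3:48609604-48609633 (-): ctgcagctggAAGATGGCGgcgtccgtggt
In ATP5PF the motifs began 120 (NRF1), 57 (YY1) and 30 (ETS) bases upstream of the start of transcription. The NRF1 site of SDHD reads as a motif on both strands in 10 overlapping bases and began 110 bases upstream. Its ETS motif lay on the opposite strand, 77 bases upstream. In UQCRC1 the YY1 motif began at base 24 downstream of the start. The ATP5PF and UQCRC1 sites lie in exons of the deposited annotation on the same strand, and those of SDHD lie outside exons of that strand. Over the 6 libraries, none of these 3 genes passed the threshold: ATP5PF had a log2 fold change of -0.06, SDHD one of 0.70 and UQCRC1 one of -0.45.

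Members spanned a wide range of counted levels, and the low ones were mostly genes whose exons overlap another gene. On the same strand, 25 members share exonic bases with another gene of the deposited annotation and 52 do not. A mean of at most 10 CPM was found in 15 of the 25 and in 1 of the 52, where 81.1% of protein-coding genes with overlap and 64.2% of those without had such a level. The 15 were NDUFA7, NDUFA9, NDUFA11, NDUFA13, NDUFB5, NDUFB8, NDUFC2, NDUFV2, SDHA, UQCR11, COX6A1, COX8A, ATP5MF, ATP5MG and ATP5PO. Just above that level were SDHD at 10.8 CPM and NDUFA5 at 11.9 CPM. Per kilobase of exon, the 15 had a median of 0.56 CPM, against 68.4 for the other 10 with overlap and 113 for the 51 without overlap and above 10 CPM. The length used is that of all annotated exons of a gene merged, not that of a transcript. Reads are of RNA strands, so a count need not grow with length. Values per kilobase therefore favour genes with a short exonic length.

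The overlapping partner of 14 of the 15 had 0 counts in all 6 libraries, and that of NDUFA13 had 1. The partners of NDUFC2 and ATP5MF have the names of read-through loci that join the member with its neighbour, NDUFC2-KCTD14 and ATP5MF-PTCD1, and those of the other 13 are given by gene identifier alone. Shared bases made up 3.31% to 35.4% of the exons of the 15. In the other 10 they made up 1.44% to 16.0%. Partners ranged from the small RNA genes SNORD138 (in COX7C) and MIR4691 (in NDUFS8) to PTPMT1 (in NDUFS3, 16.0%, at 165 CPM). Within the last 300 exonic bases, NDUFC1 (168 CPM) shared 100%, ATP5MC2 (799 CPM) 79.3% and ATP5MC3 21.7%, and the rest of the 10 shared none. Of the 15, only NDUFA13, NDUFB8 and NDUFV2 shared any of these bases. The counting program by default discards reads that match several genes at once, and neither option that would change this was set in the file headers. Its part in these low counts was not tested, so a low count of these 15 cannot be taken as a measure of the gene's transcript level. The member at a low level without overlap was COX7A1, the heart and muscle isoform of a complex IV subunit, with 0 counts in all libraries. The liver-type COX7A2, its counterpart in most tissues, had 600.6 CPM.

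**Figure D2:**
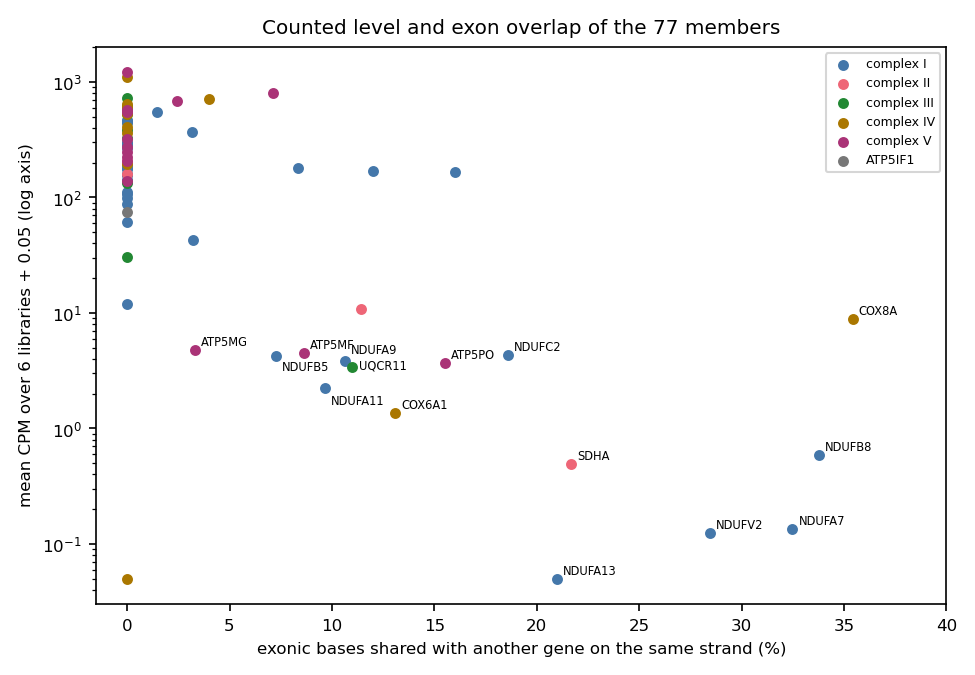
Mean level over 6 libraries (CPM plus 0.05, log axis) against the percentage of exonic bases that a member shares with another gene on the same strand. Each point is 1 of the 77 members, coloured by complex, and the 15 overlapping members at or below 10 CPM are named. The points at the left edge are members without overlap, of which COX7A1 at the bottom had 0 counts.

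Summed over all its members, each complex had a lower mean in treated cells, and in each the groups overlapped. Complex I had 7796, 7606 and 6234 summed CPM in the untreated libraries, in order of replicate, and 6890, 6148 and 5896 in the treated ones. Its mean went from 7212 ± 852 to 6311 ± 517 (SD, n = 3 each), or 87.5% of the untreated mean. Untreated replicate 3 lay below treated replicate 1, as it also did for complexes II, III, IV and V. For complex III the means were 2945 ± 370 and 2560 ± 277 (86.9%), and for complex V 6109 ± 639 and 5495 ± 471 (89.9%). Complex IV was closest to its untreated level, with 5235 ± 345 and 5126 ± 269 (97.9%). The log2 ratio of the sums was -0.19 for complex I, -0.20 for complex III and -0.15 for complex V. Without untreated replicate 1 these were -0.11, -0.11 and -0.080, without untreated replicate 3 -0.29, -0.31 and -0.25, and without treated replicate 3 -0.14, -0.11 and -0.085. Without treated replicate 2 complexes I and V were at -0.13 and -0.11. The 4 genes of complex II summed to 389 ± 22.6 and 368 ± 16.4 (94.6%). Nearly all of that sum came from SDHB and SDHC, with untreated means of 170 and 210 CPM. SDHD had 8.20 and SDHA 0.42.

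All 5 complexes together had 23538, 22740 and 19391 CPM in untreated and 21465, 19683 and 18430 in treated libraries, again with overlap between the groups. Transcripts of the 13 mitochondrial subunit genes summed to 38818 ± 4920 CPM in untreated and 41417 ± 2962 in treated cells. For every 100 CPM from mitochondrial subunit genes, the nuclear genes of the 5 complexes had 56.2, 68.6 and 46.9 CPM in untreated and 49.0, 51.7 and 43.5 in treated libraries. These ratios averaged 57.2 ± 10.9 and 48.1 ± 4.15 (SD, n = 3 each), a difference smaller than the untreated SD. Since CPM is a share of each library, a smaller share and less RNA per cell cannot be told apart.

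**Figure D3:**
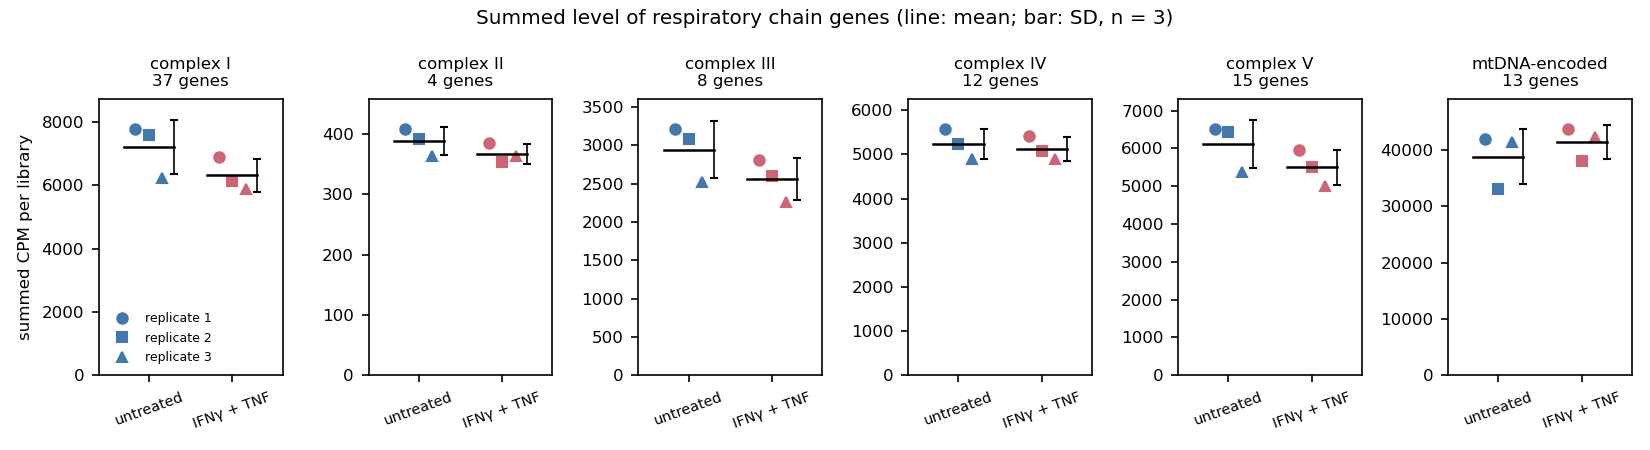
Summed CPM per library of the members of each complex and of the 13 mitochondrial subunit genes, with each axis starting at 0. Symbols mark the replicate number, lines the means and bars the SD (n = 3). In complexes I, III, IV and V untreated replicate 3 (triangle) lies at the level of the treated libraries, and complex IV has the smallest distance between group means relative to its level.

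Complex I, the NADH dehydrogenase, had 32 of 37 members tested, of which 25 had a negative log2 fold change (median -0.19). Its highest values per kilobase were those of NDUFA1 (1038 CPM per kilobase) and NDUFS5 (1026), both small accessory subunits. Their exonic lengths are short (421 and 548 bases), which by itself raises a value per kilobase. NDUFS5 (ENSG00000168653; chromosome 1, 39026318 to 39034636) also had the highest CPM of the complex, with 683, 599.8 and 574 in untreated and 552, 506 and 459 in treated libraries. All treated values were below all untreated ones, yet the log2 fold change of -0.29 (SE 0.16) had an edgeR adjusted p of 0.381. NDUFA1 had 455, 399 and 458 CPM in untreated and 418, 440.1 and 452 in treated cultures, with group means of 437 each.

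NDUFB9, an accessory subunit of the membrane arm, had the smallest p of all members. Its level was 602, 629.6 and 409 CPM in untreated and 449, 371 and 362 CPM in treated libraries. Untreated replicate 3 lay below treated replicate 1, and the other untreated libraries were far above every treated one. The log2 fold change was -0.47 (SE 0.21, 95% interval -0.94 to -0.01), with an edgeR adjusted p of 0.242.

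Other subunits of complex I had values on both sides of 0, none past the threshold. NDUFS1, which carries iron-sulfur clusters of the electron path, had 48.7, 45.5 and 48.3 CPM in untreated and 32.1, 40.6 and 39.1 with cytokines (log2 fold change -0.35, edgeR adjusted p 0.359). NDUFV1, the subunit that binds NADH and FMN, had 197 ± 20.6 and 161 ± 37.9 CPM (-0.29). NDUFAB1, the mitochondrial acyl carrier protein, which also serves lipoate synthesis and iron-sulfur cluster assembly, had 165 ± 38.6 and 196 ± 20.3 CPM (0.25).

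NDUFA9 (chromosome 12, 4649095 to 4694317), an accessory subunit near the ubiquinone site, was the member with the largest positive value and the only tested member whose treated libraries all lay above. It had 3.14, 3.62 and 1.82 CPM in untreated and 4.62, 4.51 and 5.13 in treated libraries, from 8 to 20 counts in each. The log2 fold change of 0.73 (SE 0.38) had an edgeR adjusted p of 0.345. As one of the 15 low, overlapping members, it rests on few counts. The 5 untested members were NDUFA7, NDUFA13 and NDUFV2, with at most 2 counts in a library, NDUFB8, with 0 to 6, and NDUFA11, with 6 to 11.

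Complex II, succinate dehydrogenase, also belongs to the citric acid cycle. Its flavoprotein SDHA had counts of 4, 0 and 1 without and of 2, 1 and 2 with cytokines and was not tested. The iron-sulfur subunit SDHB (chromosome 1, 17018722 to 17054032) had 192, 179 and 141 CPM in untreated and 157, 152 and 142 with cytokines (log2 fold change -0.18, edgeR adjusted p 0.686). The membrane anchors SDHC and SDHD pair with each other in the protein but were counted at 109 and 3.86 CPM per kilobase. SDHC had 211, 206 and 212 CPM in untreated and 216, 185 and 211 in treated libraries. The groups overlapped, with the wider spread in the treated one (log2 fold change -0.04, SE 0.16).

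SDHD, whose promoter sites are shown above, had 6.02, 6.72 and 11.8 CPM in untreated and 12.7, 17.6 and 9.70 in treated libraries. Untreated replicate 3 was above treated replicate 3. The log2 fold change was 0.70 (SE 0.36, 95% interval -0.11 to 1.51; edgeR adjusted p 0.335). SDHD shares 11.4% of its exonic bases with another gene.

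Complex III, the cytochrome bc1 complex, had all 8 nuclear members tested here and all 8 were negative, from -0.45 to -0.08, with a median of -0.22. They include UQCR11, one of the low, overlapping members named above, with 10 to 16 counts in a library (-0.28, SE 0.35). The largest difference was that of UQCRC1 (ENSG00000010256; chromosome 3, 48599002 to 48610976), a core protein on the matrix side. It had 420.0, 424 and 286 CPM in untreated and 325, 258 and 240.2 CPM in treated libraries. Untreated replicate 3 again lay within the treated range. The log2 fold change was -0.45 (SE 0.21, 95% interval -0.93 to 0.02), with an edgeR adjusted p of 0.281.

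Its partner core protein UQCRC2 had 143 ± 3.71 CPM in untreated and 124 ± 10.8 in treated cells (SD, n = 3 each), without overlap (log2 fold change -0.20, edgeR adjusted p 0.59). The Rieske iron-sulfur protein UQCRFS1, which hands electrons to cytochrome c1, had 683 ± 137 and 549 ± 59.4 CPM (-0.32, edgeR adjusted p 0.448). UQCRQ, a small ubiquinone-binding protein, had the highest CPM, with 839.9, 821 and 640.4 in untreated and 808, 669.9 and 619.5 in treated libraries (-0.13, edgeR adjusted p 0.793). The hinge protein UQCRH led the complex per length (395 CPM per kilobase), with 589, 521 and 524 CPM in untreated and 531, 566 and 448 in treated cultures (-0.08).

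Complex IV, cytochrome c oxidase, was the complex with the narrowest range of values. Its 10 tested members ran from -0.13 to 0.13, with 5 on each side of 0 and a median of -0.00. With library totals 9 of the 10 were negative (median -0.10, against -0.13 for all genes). With offsets for exonic length and GC content 9 were (median -0.11, against -0.095 for all genes). Complexes I, III and V stayed mostly negative with either, with 26, 8 and 12 negative members by library totals. COX4I1, an early assembled subunit and the highest of the complex in CPM, had 1216, 1222 and 968 CPM in untreated and 1291, 967 and 1016 with cytokines (log2 fold change -0.06, SE 0.18). COX7C, with the largest negative value (-0.13), had 801, 673 and 766 CPM in untreated and 711, 695 and 642 in treated cultures. COX6B1, at the face that meets cytochrome c, had 638, 615 and 547 CPM in untreated and 692, 552 and 593 in treated cultures (0.03). Both pairs of groups overlapped. COX8A had the largest positive value (0.13), with 12.04, 9.05 and 4.10 CPM in untreated and 9.82, 11.5 and 5.99 in treated cultures. Untreated replicate 3 was the lowest, and 35.4% of the exonic bases of COX8A are shared with another gene. COX6A1 was not tested, with 2 to 8 counts in a library.

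NDUFA4 was examined with its paralogs, since its protein can be exchanged in complex IV. NDUFA4 (chromosome 7, 10931943 to 10940153) had 673, 573 and 649 CPM in untreated and 629.9, 662 and 661 CPM in treated libraries, a log2 fold change of 0.04 (SE 0.15, 95% interval -0.30 to 0.38). Its value changed sign with library totals, to -0.06, and both are within its error. NDUFA4L2, a hypoxia-inducible paralog that is high in clear cell renal carcinoma, had 129 ± 49.6 CPM in untreated and 209.6 ± 109 in treated cells (SD, n = 3 each), with single libraries from 99.8 to 335. Replicate 3 was the highest of each group, and the log2 fold change of 0.70 (SE 0.38) had an edgeR adjusted p of 0.363. The edgeR adjusted p was 0.0248 when genes with 1 count or more were all tested. That fit gave well-counted members of unlike spread nearly the same SE. It was 0.23 for ATP5MC1 and 0.22 for NDUFA4, against 0.27 and 0.15 with the filter on low counts. The value of 0.0248 therefore says little of the spread of NDUFA4L2 between replicates. C15orf48, a paralog known to be induced by inflammatory signals in other cells, had 1 count in each untreated library and 2, 4 and 9 in the treated ones and was not tested. Other tissue or state isoforms were at or near 0: COX4I2, COX6B2, COX7B2, COX8C and ATP5MGL had 0 counts in all 6 libraries, and COX6A2 had 1 count in each of 2.

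Complex V, ATP synthase, had all 15 members tested, with 11 negative and a median of -0.09. Its catalytic subunit gene ATP5F1B (chromosome 12, 56638175 to 56645984) was the highest of the complex on either scale, at 541 CPM per kilobase. It had 1500, 1432 and 1008 CPM in untreated and 1295, 1079 and 955 with cytokines. Its log2 fold change of -0.24 (SE 0.20) missed the threshold (edgeR adjusted p 0.608). ATP5F1A, the alternating non-catalytic subunit, had 604 ± 36.5 and 512 ± 36.9 CPM (SD, n = 3 each) and did not overlap (-0.24, edgeR adjusted p 0.473).

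The 3 genes ATP5MC1, ATP5MC2 and ATP5MC3 encode the same mature protein, subunit c of the rotor ring, behind different import signals. ATP5MC1 (chromosome 17, 48892765 to 48895871) had 381, 380.1 and 212 CPM in untreated and 278, 220.1 and 174 in treated libraries. Only untreated replicate 3 lay within the treated range, and the log2 fold change was -0.53 (SE 0.27, edgeR adjusted p 0.324). ATP5MC3 had 890.2, 871 and 555 against 668, 580.0 and 546 CPM (-0.37, edgeR adjusted p 0.403). ATP5MC2 had 835 ± 66.5 and 762 ± 117 CPM (-0.13).

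ATP5F1E, the epsilon subunit of the central stalk, went in the opposite direction. It had 471, 407 and 588 CPM in untreated and 578, 765 and 643 in treated libraries, with untreated replicate 3 above treated replicate 1. The log2 fold change was 0.44 (SE 0.19), with an edgeR adjusted p of 0.252. ATP5IF1, which binds ATP synthase and stops it from running in reverse, had 85.9, 77.6 and 77.2 CPM in untreated and 68.7, 70.9 and 68.2 in treated libraries. The groups did not overlap, and the log2 fold change of -0.21 (SE 0.16) had an edgeR adjusted p of 0.578.

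**Figure D4:**
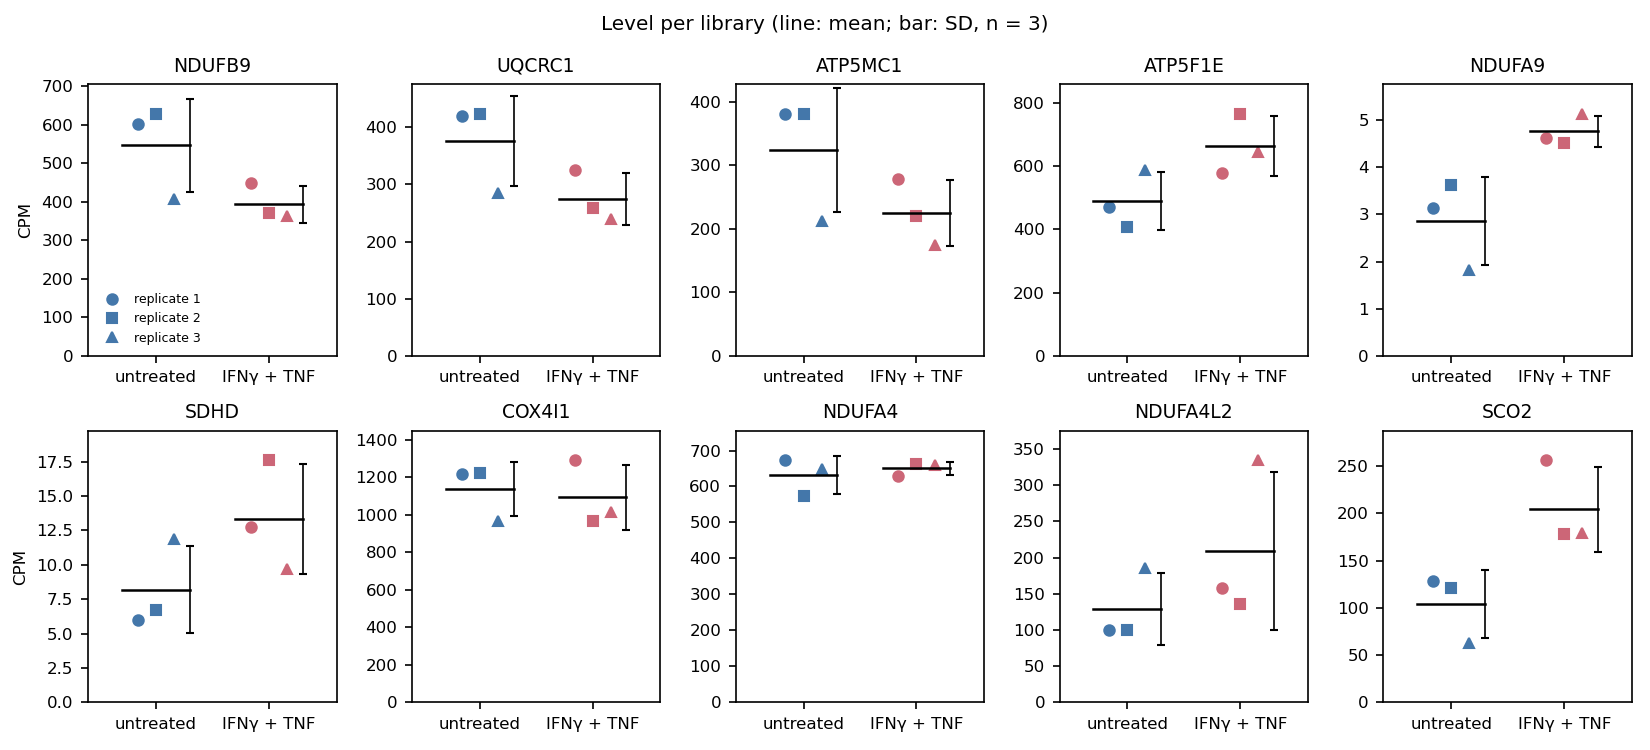
Level in every library (CPM, axes from 0) of 8 members, of the NDUFA4 paralog NDUFA4L2 and of the complex IV assembly factor SCO2. Symbols mark the replicate number, lines the means and bars the SD (n = 3). In NDUFB9, UQCRC1 and ATP5MC1 untreated replicates 1 and 2 lie above all treated libraries and replicate 3 among them.

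The spread between replicates was large beside the differences between groups, and it went with the base composition of the transcripts. On the log2 CPM scale the median absolute difference between group means was 0.19, and the median range within the untreated group was 0.39. In 64 of 69 members the larger of the 2 within-group ranges exceeded the difference between groups. The share of all genes was not computed, so this cannot be read as particular to the members. Untreated replicate 3 differed from the mean of the other untreated libraries by a median of 0.31 in either direction, from -1.25 for COX8A to 1.41 for NDUFA5, whereas replicates 1 and 2 differed by a median of 0.09.

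Deviations of the 69 members from their group mean went with the GC content of their transcripts. Across members, Pearson's r was 0.49, 0.40 and -0.57 for the untreated libraries in order of replicate. For the treated ones it was 0.72, -0.65 and 0.06. Over all genes with a GC value these were 0.50, 0.22, -0.53, 0.61, -0.59 and -0.11, so the pattern was not limited to the members. Genes share the library and are not replicates, so no p is given. Of the 15 members with the highest GC (54.8% to 68.1%), 1 was above its group mean in untreated replicate 3, as was 1 each in treated replicates 2 and 3, against 15 and 14 in replicate 1 of the untreated and treated group and 13 in untreated replicate 2. Of the 15 with the lowest GC (35.9% to 44.7%), 12 were above it in untreated replicate 3 and 14 in treated replicate 2. Only 2 of this low-GC set exceeded it in treated replicate 1, against 6 in untreated replicate 1 and 7 in untreated replicate 2. Treated replicate 3 had few of either set above its group mean, 3 with low GC beside the 1 with high GC. The median deviation of all 69 members was -0.12 in that library, so its low counts do not separate by GC. NDUFA5, an accessory subunit and the member with the lowest GC (35.9%), had 5.24, 11.6 and 21.6 CPM in untreated and 6.35, 19.0 and 7.42 in treated cultures.

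**Figure D5:**
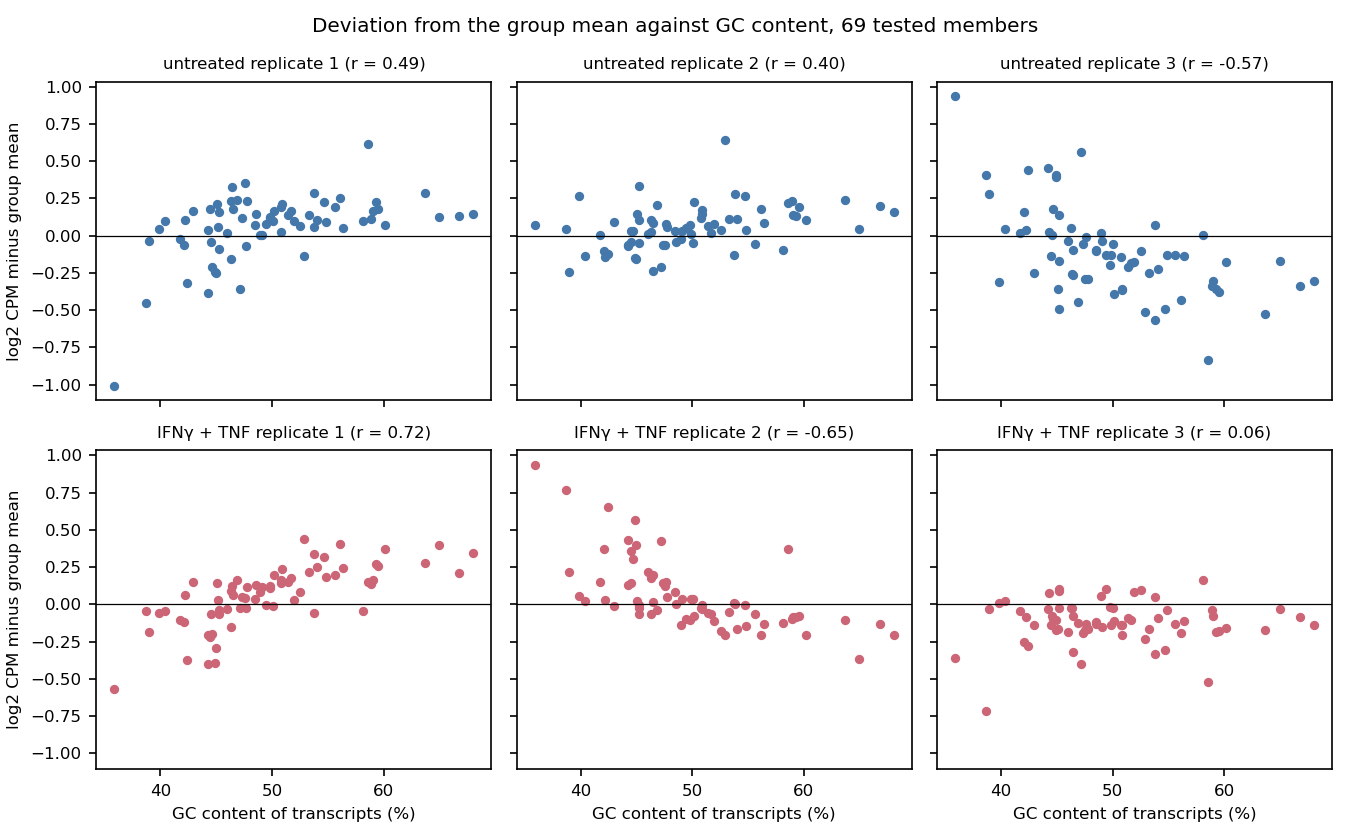
Log2 CPM of each of the 69 tested members minus its group mean, against the GC content of its transcripts in percent, 1 panel per library with Pearson's r. Points slope upward in replicate 1 of both groups and downward in untreated replicate 3 and treated replicate 2.

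Calls among the members depended on how that spread was handled. Without untreated replicate 3, edgeR called 4 of 70 members lower, NDUFB9, UQCRC1, ATP5MC1 and ATP5MC3, in a fit that called 4.35% of all genes lower. Adjusted p values were then 0.0297 for NDUFB9, 0.0456 for UQCRC1 and 0.0276 for ATP5MC1, with log2 fold changes of -0.65, -0.63 and -0.77. With 1 surrogate variable as a covariate, which absorbs variation not due to group, NDUFB9, UQCRC1 and ATP5MC1 were called lower (7.66% of all genes) and ATP5F1E higher (10.9% of all genes). Offsets for exonic length and GC content, an alternative added after the data were seen, left UQCRC1 as the 1 member called lower (6.01% of all genes), at -0.58 on the log2 scale (edgeR adjusted p 0.028). The direction of NDUFB9, UQCRC1, ATP5MC1 and ATP5F1E was the same in all 19 alternative fits. These members were picked by small p and the fits share libraries, so a stable direction adds no support. It was also stable for SDHB and UQCRQ, with edgeR adjusted p values of 0.686 and 0.793. Leaving out any single library other than untreated replicate 3 called 0 members, in fits that called 455 to 704 of 10365 to 10523 genes. In each of these fits genes in general were called too, so the members called are to be read beside the shares of all genes.

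Genes around the chain were read from lists. Of 53 assembly factors, which build the complexes without staying in them, 45 were tested and 0 were called (median log2 fold change -0.19, 29 negative). All 6 complex III factors were negative, with a median of -0.46, and ran from -0.63 (TTC19) to -0.20 (UQCC1). In all 6 the groups overlapped, and the lowest edgeR adjusted p was 0.351. In BCS1L and UQCC3 untreated replicate 3 lay below every treated library, and LYRM7 had 5 to 24 counts in a library. Complex I factors had a median of -0.13 over 16 genes, complex II factors -0.29 over 3, complex IV factors -0.03 over 18 and complex V factors 0.13 over 2. The largest value belonged to SCO2, a copper chaperone of complex IV, with 129, 121 and 63.3 CPM in untreated and 256, 178 and 179 in treated libraries. All treated values were above all untreated ones, and the log2 fold change of 0.97 (SE 0.29) had an edgeR adjusted p of 0.0758. The edgeR adjusted p was 0.00069 when genes with 1 count or more were all tested. As said for NDUFA4L2, that fit says little of the spread of a single gene between replicates. SCO2 shares 26.1% of its exonic bases with TYMP on the same strand, and TYMP itself had 4 counts over the 6 libraries. The part of that overlap in the values of SCO2 was not tested. The copper carrier COX17 had 69.6, 56.9 and 41.2 CPM in untreated and 78.6, 83.5 and 83.0 with cytokines (log2 fold change 0.55, edgeR adjusted p 0.198).

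Chain genes that the naming rule left out gave 0 calls among 8 tested. Cytochrome c1 (CYC1) had 454, 454 and 227 CPM in untreated and 417, 327 and 297 in treated libraries (-0.12). Cytochrome c (CYCS) had 164 ± 24.7 and 132 ± 46.7 CPM (-0.31), and COX7A2L, which joins complexes III and IV into supercomplexes, had 235 ± 22 and 187 ± 19.5 CPM without overlap (-0.33, edgeR adjusted p 0.335). The small ATP synthase subunits ATP5MJ and ATP5MK had values of -0.18 and 0.24. HIGD1A and HIGD2A had -0.02 and 0.11, and UQCRHL, an intronless copy of UQCRH whose reads could be shared with it, had 0.06.

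Mitochondrially encoded subunits gave 0 calls among 12 tested, with a median of 0.14 and values from -0.04 to 0.27. With library totals the median was 0.024 and 10 of the 12 were positive, as without them. MT-ATP8, the other of the 13, had 0 to 15 counts. Of 14 citric acid cycle genes 0 were called (median -0.05). OGDH, a component of the oxoglutarate dehydrogenase complex, had 84.8, 92.6 and 83.1 CPM in untreated and 131, 107 and 137 in treated libraries (0.53, edgeR adjusted p 0.119). IDH2, the NADP-dependent mitochondrial isocitrate dehydrogenase, had 247, 238 and 191 against 185, 134 and 138 CPM (-0.56, edgeR adjusted p 0.139). Neither gene's groups overlapped. Among 12 regulators of mitochondrial biogenesis 9 were tested and 0 called (median 0.00, or -0.11 with library totals). PPARGC1A, a coactivator of respiratory genes, had 0 counts in all 6 libraries, and NRF1, YY1 and TFAM had values of -0.23, 0.00 and 0.02.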

How the data were processed

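The deposited files hold gene-level read counts of 6 libraries, made by the authors with featureCounts 2.0.1 in long-read, strand-specific mode on exons of Ensembl release 105 (GRCh38), per the file headers. The submitters' processing notes list minimap2 2.24, SAMtools 1.16, featureCounts 2.0.0 and hg38. The series' design text gives a read quality threshold of 7. Groups came from the sample titles. The labels name no vehicle, although alignment names in the headers contain dmso.

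Counts were tested with edgeR 4.0.16 in R 4.3.3 (quasi-likelihood F test, TMM, filterByExpr, group as the sole term, Benjamini-Hochberg over all genes). CPM uses TMM-normalised library sizes, and SE is the log2 fold change over the square root of F. GC content came from GENCODE 29 transcripts and exonic length and overlap from the deposited exons. Members, gene lists and tests were chosen with earlier results of these data known. Values in every library were given for the highest member and the largest change of each direction in each complex, the 5 smallest p, ATP5IF1, NDUFA4 and other genes chosen after their values were seen. Alternatives were DESeq2 1.42.0 and its size factors, library totals, 2 other filters, genes without exon overlap, limma 3.58.1 voom, exonic length offsets with and without GC, sva 3.50.0, a replicate block and leaving out each library. The edgeR, DESeq2, voom, replicate block, length offset, length and GC offset and surrogate variable fits were tested on simulated counts. Those counts held no GC-linked spread between replicates. The other steps were not part of that simulation. Values of some single genes are not reported here. The planned protein comparison of NDUFA4 with its paralogs was not run. For 3 against 3 libraries an exact permutation test cannot go below 0.1, so none is given.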

Additional observations from a re-analysis of the deposited data

How the results depend on the processing

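The count of all genes called was 819. It became 1866 with 1 surrogate variable, 1328 with no filter beyond 1 count, 1311 with length and GC offsets, and 455 to 1178 without 1 library. Members called lower were 3 with 1 surrogate variable, 1 with length and GC offsets and 0 to 4 without 1 library. Members called higher were 1 with 1 surrogate variable. The members' median, -0.13, was -0.20 to -0.064 without 1 library. The summed log2 ratio of complex II, -0.08, was -0.18 with library totals, 0.16 as a mean of log2 CPM and -0.13 to -0.0047 without 1 library. That of all 5 complexes, -0.14, was -0.23 to -0.062 without 1 library. That of complex IV, -0.03, was -0.13 with library totals and -0.08 to 0.04 without 1 library. Of 300 alternative values for 16 named members, 273 kept direction and side of the threshold, 15 passed it and 12 changed sign. The sign changes were in NDUFA4 (-0.092 with length and GC offsets, -0.068 with length offsets, -0.062 with library totals, and -0.021 to 0.12 without 1 library), COX4I1 (-0.19 to 0.070), COX8A (-0.21 to 0.50) and SDHC (-0.078 to 0.075) without 1 library. The cause was not tested.

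Equal replicate numbers matched the libraries only in part: deviations over all genes correlated at 0.65, -0.00 and 0.37 for numbers 1, 2 and 3. Untreated replicate 1 correlated best with treated replicate 1, and treated replicate 3 with untreated replicate 3. Untreated replicate 3 correlated best with treated replicate 2 (0.41). With the replicate number as a block, 1513 genes and 0 members were called. With the block and length offsets, 1819 genes and 2 members, both lower, were called (9.14% of all genes lower), and NDUFA4 was at -0.063. With the block and length and GC offsets, 2297 genes, 10 members lower (12.5% of all genes) and 1 higher (10.3% of all genes) were called, and NDUFA4 was at -0.070. With at most 3 counts in every library, NDUFA7, NDUFA13, NDUFV2 and COX7A1 could not be compared at this depth.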
